A study of Rattus norvegicus with 4 samples.

Results

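The nuclear genome encodes most subunits of the mitochondrial respiratory chain, and their levels are described here across the cells of the rat hippocampus. Members were taken by symbol: genes named Ndufa, Ndufb, Ndufc, Ndufs, Ndufv, Sdha to Sdhd, Uqcr, Cox4 to Cox8 or Atp5, without the assembly factors Ndufaf and Sdhaf and without Cox8b, that held at least 200 UMIs (unique molecular identifiers, counts of captured RNA molecules) in the whole matrix. Of 32623 genes, 88 matched the names and 80 reached the minimum, under 77 symbols. They made up 35 features of complex I, 4 of complex II, 9 of complex III, 17 of complex IV and 15 of complex V, with Ndufa4 and Ndufa4l2 counted in complex IV. Cox6b1, Uqcrb and Ndufv3 each stand for 2 features, and the lower one is called the copy here: reads of such near-identical sequences can be split between the features, so the copies are uncertain. Just inside the minimum were Cox6a2 with 310 UMIs, the Ndufv3 copy with 469 and Cox6b2 with 608. Just outside it were Ndufs6 with 134 UMIs, Atp5pb with 73, Cox7a1 with 2 and Ndufa10l1 with 1, while Ndufa1, Cox8c, Cox7b2 and Cox6c-ps1 were at 0.

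Electrons from NADH enter the chain at complex I and electrons from succinate at complex II. They pass through ubiquinone to complex III, through cytochrome c to complex IV and on to oxygen, and complexes I, III and IV pump protons as they go. Complex V, the ATP synthase, lets the protons back in and makes ATP. Complexes I, III, IV and V each also hold subunits made from the mitochondrial genome, so the 13 protein-coding Mt genes were followed beside the members.

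The labels describe male adult Sprague Dawley rats of 10 to 12 months and 250 to 300 g, all wild type, with 20 animals in 2 groups of 10. The series' design text has both groups receive a monofilament occlusion of the middle cerebral artery (MCAO) on 1 side and only 1 of them chronic stress afterwards, and it gives 5 hippocampi per group for sequencing. The 4 sample titles are NC, described as a negative control, MCAO, described as the arterial occlusion, and DEPR and MD, both described as chronic stress. The text and the titles therefore do not match in the number of groups, and the hippocampi behind each title may be pooled. Fresh tissue was minced, dissociated with enzymes and treated with red cell lysis buffer, and 3′ libraries were sequenced, 1 per title.

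All cells sit in 1 matrix, in which barcodes end in 1 of 4 suffixes. Which suffix belongs to which title could not be worked out from the labels or the files, so the 4 barcode sets are treated as 4 unassigned samples: values are given per set, no set is called a condition, and no test between conditions was made. The sets held 7291, 8959, 5884 and 9504 barcodes and 43640627, 46669201, 36242408 and 54295520 UMIs. After filters and removal of 942 predicted doublets, 27937 cells were kept, and 96 barcode sequences occurred in more than 1 set. Cells were typed by lists of marker genes that hold no member, and each type is called "like" its name: 24537 cells fell in the 12 types used, and 3297 cells (11.8%) had no type. Microglia-like cells (11571), oligodendrocyte-like cells (7867) and endothelial-like cells (2810) were the largest types. No cell passed as a neuron and 4 passed as astrocytes, so the hippocampus is seen here without its neurons. All 17 oligodendrocyte markers and all 17 endothelial markers were detected in their own type in every set. So were 17 of 18 microglia markers, with Siglech at 0. Cells were typed by these same markers, so such detection follows from the typing. Both lists of 17 were also detected in full in the other large types in every set, so detection alone does not set the types apart.

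A level is the number of a gene's UMIs per 1000000 UMIs (CPM) summed over the cells of 1 type in 1 set. Each captured 3′ end gives 1 UMI whatever the length of the transcript, so levels were not divided by length, although capture and annotation of the 3′ end can differ from gene to gene. A ratio between types was formed within each set. A gene was called higher or lower where its ratio was at least 1.5-fold, with the exact 95% interval off 1, in the same direction in every set, and it was measured where both types together held at least 20 UMIs in every set. Such intervals cover counting error only. Where the highest and lowest of the sets are compared, the interval takes no account of their having been picked by level.

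The members held 2710122 UMIs, 1.499% of all, and the 13 Mt genes held 13323787, or 7.37%. Cox4i1, the common form of a regulatory subunit of complex IV, had the most UMIs with 116775, followed by the complex V subunit Atp5f1e with 86074. Uqcrh, the hinge protein of complex III, led its complex with 66621, Ndufb11 led complex I with 50945, and Sdhb, the iron-sulfur subunit, led complex II with 19510.

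By the median, smooth muscle-like cells gave the largest share of their UMIs to the members and red cell-like cells the smallest, although each range overlaps with that of its neighbour. As the median of the sets, the share was 2.76% (2.44 to 3.04) in smooth muscle-like cells, 2.32% (2.25 to 2.47) in oligodendrocyte-like cells and 2.27% (2.21 to 2.34) in pericyte-like cells. Ependymal-like cells followed with 2.01% (1.97 to 2.06) and endothelial-like cells with 1.72% (1.59 to 1.87). The oligodendrocyte range overlaps with both the smooth muscle and the pericyte range, so the order of these neighbours is not resolved. Monocyte-like cells, with 1.64% (1.61 to 1.70), and T cell-like cells, with 1.57% (1.51 to 1.62), also overlap with the endothelial range. Border macrophage-like cells spread widely, from 0.798% to 1.29% with a median of 1.04%. Their range takes in that of microglia-like cells, which was 0.925% (0.867 to 1.02), and overlaps with B cell-like cells at 0.866% (0.767 to 0.965). Neutrophil-like cells had 0.564% (0.483 to 0.645) and red cell-like cells 0.474% (0.450 to 0.498), and these ranges overlap too. Ependymal, B cell, neutrophil and red cell values come from 2 sets and monocyte values from 3, because the other sets held fewer than 20 such cells.

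**Figure D1:**
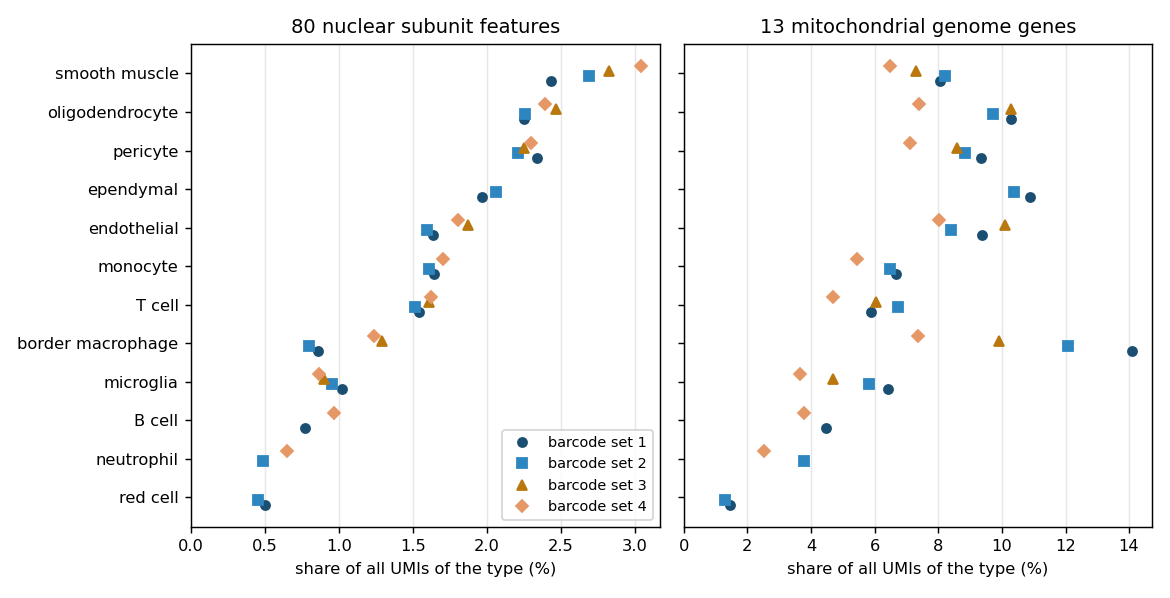
Share of UMIs, in percent, held by the 80 nuclear members and by the 13 Mt genes in each cell type, with 1 point per barcode set. Smooth muscle-like cells reach the highest member share (2.44 to 3.04%) and border macrophage-like cells the highest Mt share (7.37 to 14.1%), and microglia-like cells lie low in both.

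The order of the 3 largest types was the same in single cells. The median microglia-like cell gave 0.942%, 0.882%, 0.854% and 0.814% of its UMIs to the members in sets 1 to 4. The median oligodendrocyte-like cell gave 2.29%, 2.30%, 2.51% and 2.48%, and the median endothelial-like cell 1.58%, 1.53%, 1.83% and 1.76%. The medians keep this order in every set. Of the 80 members, 30 had their highest median level in smooth muscle-like cells, 23 in oligodendrocyte-like cells, 10 in ependymal-like cells and 9 in pericyte-like cells. The lowest level was in red cell-like cells for 51 members and in neutrophil-like cells for 23. The same counts were not taken over all genes, so nothing about the members is read from them. In red cell-like cells low levels were general: of 2694 genes with at least 20 expected UMIs there, 95.4% were called lower than in all other typed cells.

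**Figure D2:**
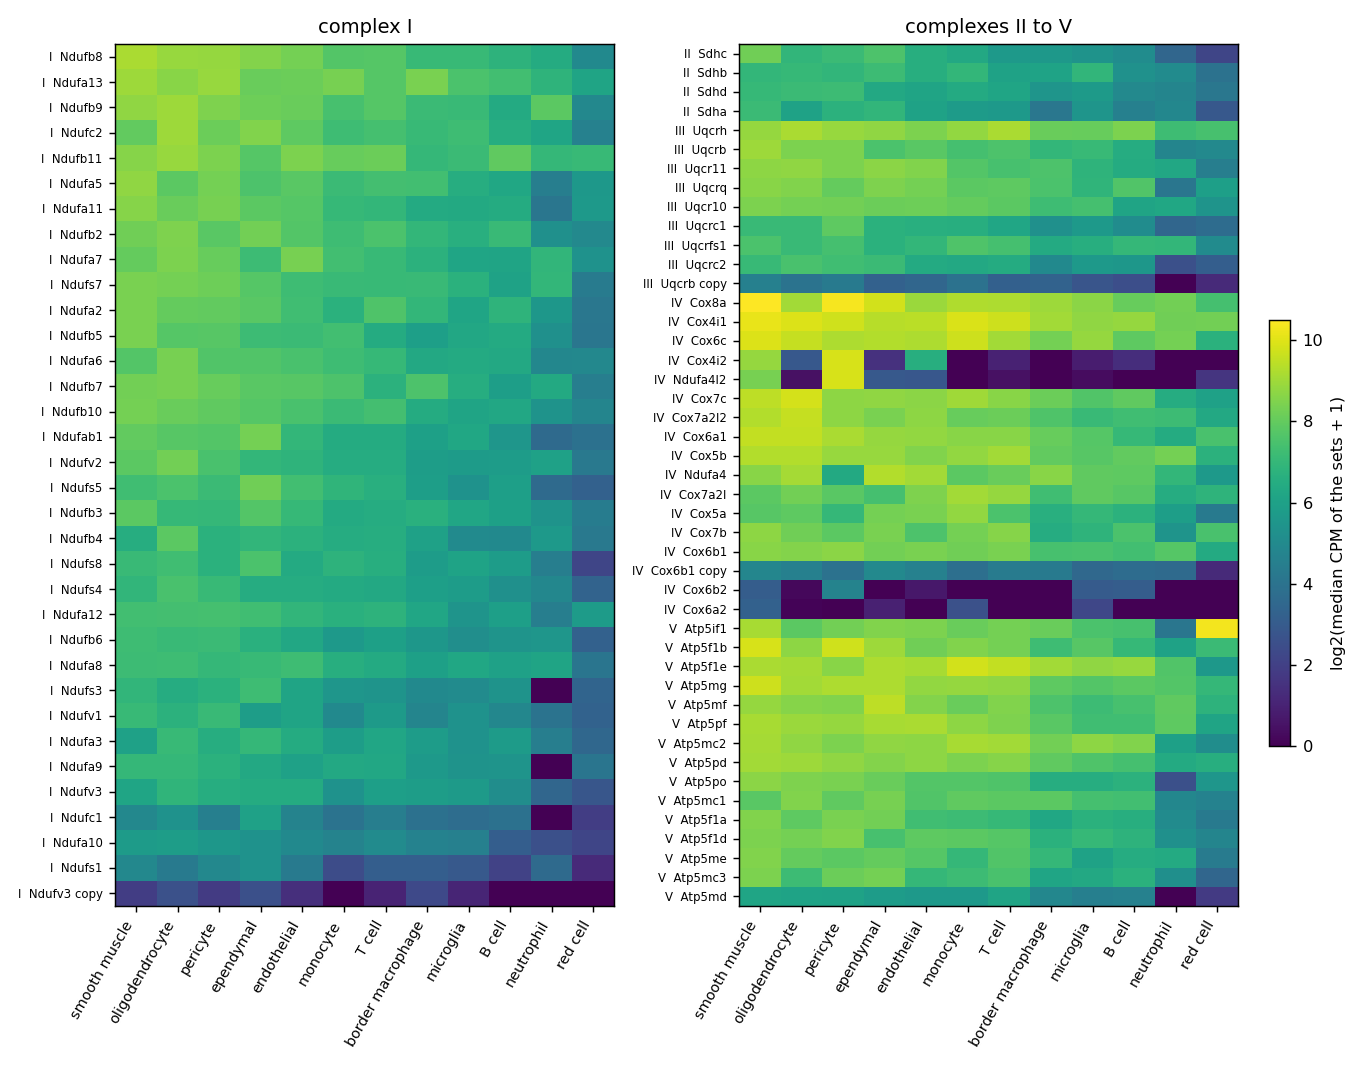
Heat map of the level of 79 of the 80 members (rows, ordered by complex) in the 12 cell types (columns), as log2 of the median CPM of the sets plus 1. Ndufa4l2 and Cox4i2 are brightest in the pericyte and smooth muscle columns, and the red cell column is dark for most members but not for Atp5if1.

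The complexes did not take the same share of the module in each type. Complex I took 34.5% (34.2 to 34.6) of member UMIs in oligodendrocyte-like cells, 29.9% (29.5 to 30.5) in endothelial-like cells and 26.2% (26.1 to 26.6) in microglia-like cells, and these ranges do not overlap. Complex V went the other way, with 22.4% (22.1 to 22.9) in oligodendrocyte-like cells, 26.7% (26.2 to 27.4) in endothelial-like cells and 27.9% (27.6 to 28.4) in microglia-like cells. Complex IV took 30.5%, 30.6% and 32.3% in the same order, and complex II 1.97%, 1.91% and 2.77%. The most lopsided type was the red cell-like one, where complex I took 17.3% (16.0 to 18.5) and complex V 43.2% (41.7 to 44.7). Much of this complex V share was 1 gene, the inhibitor Atp5if1. It had a median of 1278 CPM there, beside 2050 CPM for complex V as a whole. Shares without Atp5if1 were not computed.

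Microglia are the resident immune cells of the brain and oligodendrocytes its myelin-forming cells. Microglia-like cells had lower levels of nearly the whole module than oligodendrocyte-like cells. Of the 79 members measured, 67 were called lower and 2 higher in microglia-like cells, and 10 were neither; among all 10843 genes measured, 37.6% were called lower and 22.1% higher. The median log2 ratio of the members was −1.45, against −0.42 for all genes, so relative to all genes it was −1.05 (−1.22 to −0.86 over the sets). Summed over the members, microglia-like cells had 10169, 9513, 8989 and 8667 CPM and oligodendrocyte-like cells 22494, 22565, 24650 and 23906. Markers of the other type were present at low levels on both sides: the oligodendrocyte list summed to 394, 440, 776 and 755 CPM in microglia-like cells, against 42384 to 53786 in its own type, and its part in the ratios was not tested.

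**Figure D3:**
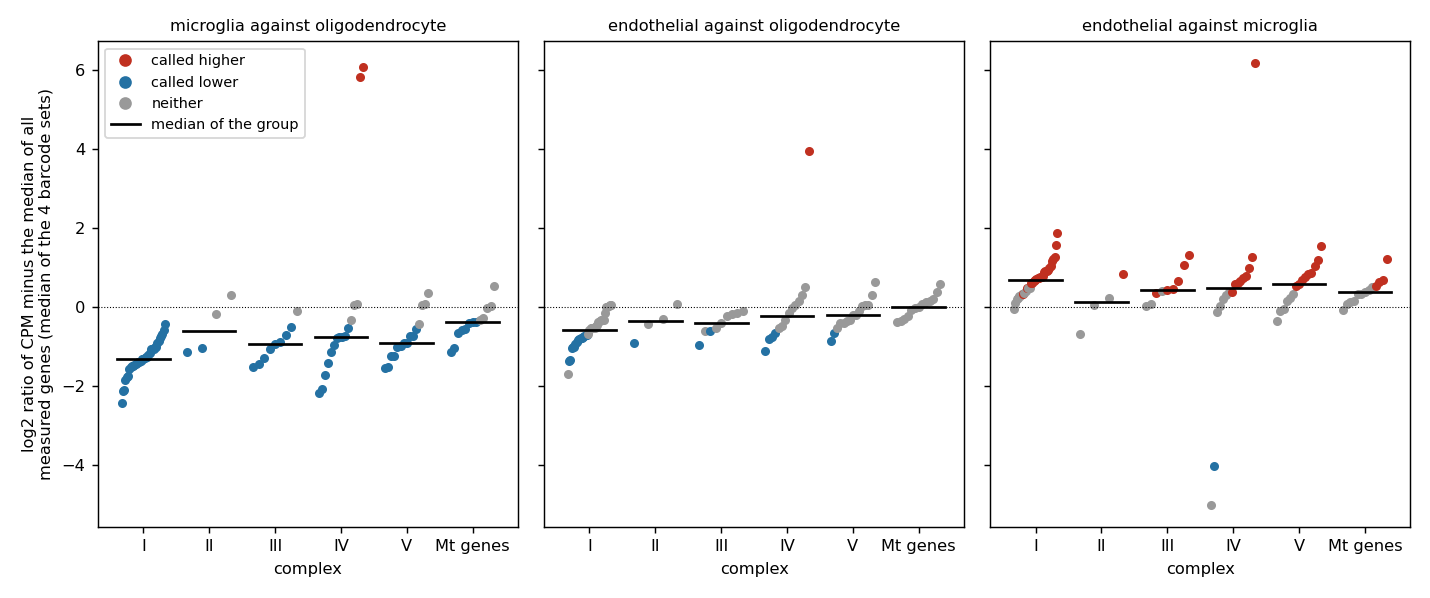
Relative log2 ratio of each member in the 3 comparisons, grouped by complex and Mt genes, after subtracting the median of all genes (red, called higher; blue, called lower; grey, neither; black line, median of the group). Complex I is blue throughout in microglia against oligodendrocyte, and the values are clipped at both ends, so that Cox6a2 in endothelial against microglia, where 3 endothelial sets held 0 UMIs, is drawn at the lower edge.

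Complex I, the NADH dehydrogenase, had no exception: all 35 of its members were called lower, with a median log2 ratio of −1.74 (−1.31 relative to all genes). This held for its 8 members of the N module, which takes electrons from NADH, for its 5 members of the Q module, which hands them to ubiquinone, and for the other 22. Ndufv2, an iron-sulfur subunit of the N module, had 53.8, 54.3, 52.5 and 45.9 CPM in microglia-like cells and 302, 304, 304 and 281 in oligodendrocyte-like cells, a log2 ratio of −2.51. The sets lie close together within each type, and the gap is 5.70-fold in the median set. Ndufb4, an accessory subunit of the membrane arm, had the most negative ratio of all members, −2.84, from 50.3, 28.6, 34.5 and 23.7 CPM against 265, 186, 273 and 199. Its sets were less even, with microglia-like cells of set 1 at 2.12 times those of set 4 (1.87 to 2.41). Ndufa7, another accessory subunit, had 72.9, 73.2, 68.1 and 66.4 CPM against 321, 328, 356 and 350 (−2.27).

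Complex II, succinate dehydrogenase, had the median closest to 0. Its members had a median log2 ratio of −1.02, and 2 of 4 were called lower. The membrane anchors Sdhc, with 39.3, 38.2, 42.6 and 44.0 CPM against 115, 115, 123 and 126, and Sdhd, with a log2 ratio of −1.45, were the called pair. The catalytic subunits were not called: Sdha, the flavoprotein, had a log2 ratio of −0.58, and Sdhb had 123, 125, 118 and 113 CPM in microglia-like cells and 124, 123, 139 and 143 in oligodendrocyte-like cells. For Sdhb the types overlap, while for Sdhc and Sdhd they lie far apart.

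Complex III, which passes electrons to cytochrome c, had 8 of 9 members lower and a median log2 ratio of −1.39. Uqcrc2, a core protein, had 47.7, 51.4, 48.3 and 49.8 CPM against 152, 171, 190 and 191. Uqcrfs1, the Rieske iron-sulfur subunit that carries electrons onward, was the uncalled member, with 98.8, 105, 91.5 and 91.5 CPM against 140, 144, 138 and 137; these do not overlap, but the ratio (log2 −0.54) was under 1.5-fold in sets 1 and 2 and just over it in sets 3 and 4.

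Complex IV, cytochrome c oxidase, had 11 members lower and 2 higher of 16 measured, with a median log2 ratio of −1.16. Cox7c, a small nuclear subunit, had 236, 210, 190.5 and 188 CPM in microglia-like cells against 999, 885, 923 and 860 (log2 −2.14), and Cox7a2l2 had 163, 149, 126 and 115 against 753, 766, 768 and 740 (−2.49). Not called were Cox8a (−0.36), Cox6c (−0.75) and Cox7a2l (−0.31), the last a factor that joins complexes III and IV into supercomplexes. Both members called higher, Cox6a2 and Cox6b2, were rare tissue isoforms.

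Complex V, the ATP synthase, had 11 of 15 members lower and a median log2 ratio of −1.30. The catalytic subunits Atp5f1a (−1.17) and Atp5f1b (−0.97) were called lower, and so was Atp5pf of the peripheral stalk, with 167, 153, 157 and 154 CPM against 443, 464, 512 and 526. The uncalled members were Atp5f1e of the central stalk (−0.35), the inhibitor Atp5if1 (−0.36), and Atp5mc2 (−0.04) and Atp5mc3 (−0.86), 2 of the 3 genes that encode the proton-carrying c subunit. The c subunit genes thus differed among themselves: Atp5mc2 had 425, 439, 365 and 406 CPM in microglia-like cells and 367, 406, 446 and 467 in oligodendrocyte-like cells, while Atp5mc1 had 180, 174, 156 and 159 against 342, 358, 379 and 392 and was called lower.

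Endothelial cells line the vessels and form the blood-brain barrier. Endothelial-like cells lay between the other types. Against oligodendrocyte-like cells, 24 of 77 members measured were called lower and 1 higher, where 21.8% of all 10205 genes were lower and 20.9% higher; the median log2 ratio was −0.49, or −0.42 relative to all genes. Complex I held 15 of the 24, with a median of −0.63, and complexes II, III, IV and V held 1, 2, 4 and 2. Ndufv2, with 99.6, 102, 126 and 124 CPM (log2 −1.43), was among the lowest here as well, with Cox7c (−1.16), Ndufb4 (−1.12), Ndufc2 of the complex I membrane arm (−1.10) and Uqcrc2 (−1.03). The share of members called lower (31.2%) is above that of all genes, but 52 members were neither, and at a 2-fold limit 2 of the 24 stayed.

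Against microglia-like cells, 48 of 78 members measured were called higher in endothelial-like cells and 1 lower, where 27.9% of all 10183 genes were higher and 13.5% lower. The median log2 ratio was 0.96, or 0.60 relative to all genes. With ratios centred on the median of all genes, 25 members were higher and 2 lower, and the share of all genes called in this way was not counted. Ndufa7 had 331, 318, 327 and 342 CPM in endothelial-like cells (log2 2.22 against microglia-like cells), close to its oligodendrocyte-like levels. Atp5pf had 503, 540, 617 and 631 CPM (1.89), and Ndufs5, an accessory complex I subunit, had 165, 152, 166 and 150 against 48.1, 41.0, 39.9 and 37.8 (1.94). Uqcr11, a small subunit of complex III (1.68), and Ndufb4 (1.64) came next. The 3 comparisons share cell types, so their ratios are not independent of each other.

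The members with the steepest differences between types were isoforms. NDUFA4 is a subunit of complex IV, although its name was given when it was placed in complex I, and NDUFA4L2 is its paralog, known to be induced by low oxygen in cultured cells. Pericytes wrap capillaries, and smooth muscle cells wrap arterioles. In pericyte-like cells Ndufa4l2 had 940, 768, 966 and 913 CPM and Ndufa4 had 62.0, 127, 82.9 and 79.8. Ndufa4l2 thus made up 93.8% (exact 95% interval 90.9 to 96.0), 85.8% (78.5 to 91.4), 92.1% (89.0 to 94.5) and 92.0% (88.9 to 94.4) of the pair's UMIs. In the types other than smooth muscle the order was the reverse: oligodendrocyte-like cells had Ndufa4 at 497, 524, 568 and 594 CPM and Ndufa4l2 under 1 CPM in each set. Smooth muscle-like cells carried both, with Ndufa4l2 at 334, 297, 519 and 311 CPM and Ndufa4 at 251, 415, 373 and 470, so that Ndufa4l2 was 57.1%, 41.7%, 58.2% and 39.8% of the pair. Sets 1 and 3 lie above sets 2 and 4 here.

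A Ndufa4l2 UMI was found in 82.3% of the 470 pericyte-like cells, at a median of 2720 UMIs per cell, in 49.6% of smooth muscle-like cells, in 2.60% of endothelial-like cells and in 0.203% of oligodendrocyte-like cells, which had 5592 UMIs per cell. With each cell thinned to 1000 UMIs, the shares were 59.8%, 28.8%, 0.745% and 0.0260%. The endothelial-like levels of 3.04, 6.05, 6.28 and 9.73 CPM came to 0.324 to 1.07% of the pericyte-like level. Of the 11 pericyte markers, Rgs5 stood above this in every set, at 0.715 to 1.80% of its own pericyte-like level, and the other 10 stood below it in every set. The part of pericyte RNA in these levels was not tested. Smooth muscle-like cells also held pericyte markers, which summed to 2001 to 3165 CPM there against 16673 to 17307 in pericyte-like cells. Notch3 stood at 88.9% of its pericyte-like level and Rgs5 at 27.1%, but Kcnj8 at 0.311%, beside 37.1% for Ndufa4l2; the part of shared cells was not tested.

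**Figure D4:**
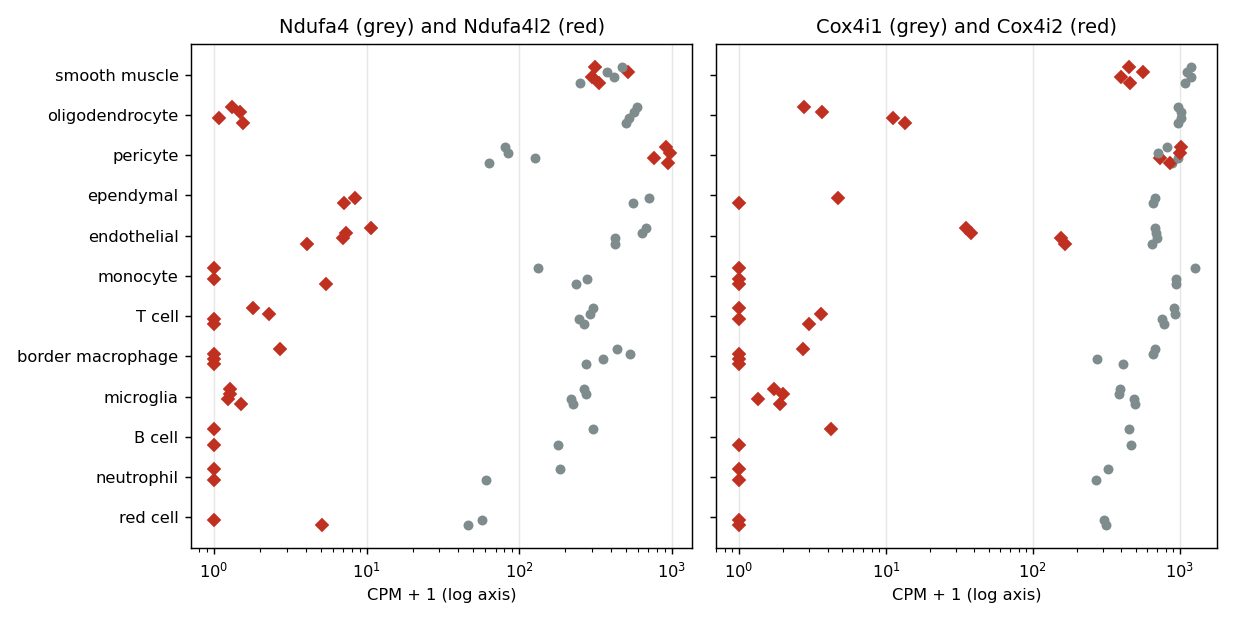
Levels in CPM plus 1 (log axis) of Ndufa4 and Cox4i1 (grey) and of their paralogs Ndufa4l2 and Cox4i2 (red) in each cell type, with 1 point per barcode set. The red points pass or meet the grey ones in pericyte-like cells, and Ndufa4l2 falls under 1 CPM in microglia-like and oligodendrocyte-like cells.

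The promoters of this pair, as listed in the RefSeq tables for build GRCr8 from 250 bases before to 50 after the start of the gene, are shown because the balance of the pair turned between pericyte-like and oligodendrocyte-like cells, and those of Cox4i1 and Ndufa6 because they stand for the member with the most UMIs and for a complex I member called lower in both microglia-like and endothelial-like cells. Capitals mark matches, on either strand, to the 4 motifs searched. The NRF1 core was CGCATGCG, which is its own reverse complement; this form was chosen after counts with a longer form had been seen. The ETS core was CCGGAAG and the YY1 core AAGATGGCG. The hypoxia response core was ACGTG, or the same with G as its first base. An E-box of the form CACGTG holds the hypoxia core on both strands.
Ndufa4, chr4:40975510-40975809, minus strand: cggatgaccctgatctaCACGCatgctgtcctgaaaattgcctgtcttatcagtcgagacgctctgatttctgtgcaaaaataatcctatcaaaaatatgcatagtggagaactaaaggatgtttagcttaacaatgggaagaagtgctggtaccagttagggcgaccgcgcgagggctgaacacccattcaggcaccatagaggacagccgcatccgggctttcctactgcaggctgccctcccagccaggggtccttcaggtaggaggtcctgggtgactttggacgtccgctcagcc
Ndufa4l2, chr7:65241919-65242218, plus strand: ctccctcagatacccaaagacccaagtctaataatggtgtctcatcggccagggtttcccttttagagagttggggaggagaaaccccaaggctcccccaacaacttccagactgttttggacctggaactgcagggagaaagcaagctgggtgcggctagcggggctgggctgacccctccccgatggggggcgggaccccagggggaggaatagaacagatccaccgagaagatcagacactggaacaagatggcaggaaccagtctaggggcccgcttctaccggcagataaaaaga
Cox4i1, chr19:65630133-65630432, plus strand: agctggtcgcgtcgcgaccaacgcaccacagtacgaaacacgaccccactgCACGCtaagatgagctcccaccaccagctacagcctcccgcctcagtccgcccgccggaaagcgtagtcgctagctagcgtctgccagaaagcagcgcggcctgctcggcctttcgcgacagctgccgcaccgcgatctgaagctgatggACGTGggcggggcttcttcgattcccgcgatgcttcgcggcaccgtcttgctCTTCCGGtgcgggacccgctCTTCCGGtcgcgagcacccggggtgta
Ndufa6, chr7:115750268-115750567, minus strand: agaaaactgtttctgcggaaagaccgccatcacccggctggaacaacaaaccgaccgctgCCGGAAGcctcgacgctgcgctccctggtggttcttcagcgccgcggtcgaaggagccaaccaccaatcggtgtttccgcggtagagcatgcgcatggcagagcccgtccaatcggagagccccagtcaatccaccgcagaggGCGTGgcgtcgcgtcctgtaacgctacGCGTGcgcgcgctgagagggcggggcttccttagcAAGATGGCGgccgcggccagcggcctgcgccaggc
Ndufa4 has 1 match, to the hypoxia core, and Ndufa4l2 has none of these letters in its window. Cox4i1 has 2 ETS and 2 hypoxia matches, and Ndufa6 has 1 ETS, 1 YY1 and 2 hypoxia matches.

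Of the 77 member symbols, 67 had a promoter in the tables. The YY1 core was in 9 of them (13.4%), against 2.07% of 21851 protein-coding promoters and 1.73% of all 33469. The ETS core was in 18 (26.9%), against 10.7% and 8.75%. The NRF1 core was in 7 (10.4%), against 2.11% and 1.66%, and the short hypoxia core was in 36 (53.7%), against 45.8% and 41.6%. Base composition was close, with a median GC content of 56.0% in the members and 55.0% in protein-coding promoters. NRF1, ETS factors such as GABP and YY1 are known regulators of respiratory genes; a match is a stretch of letters and not a site of binding.

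COX4I2 is the second form of the regulatory COX4 subunit and is known from lung and from oxygen sensing. In pericyte-like cells Cox4i2 had 732 to 1016 CPM beside Cox4i1 at 878, 965, 712 and 821, and it made up 49.4%, 43.2%, 58.4% and 55.3% of the pair. In smooth muscle-like cells it had 458, 399, 560 and 449 CPM, or 29.7%, 25.2%, 33.4% and 27.6%. Endothelial-like cells had 163, 155, 37.1 and 34.2 CPM in sets 1 to 4, or 20.2%, 18.2%, 5.12% and 4.83% of the pair. Sets 1 and 2 are far above sets 3 and 4, by 4.78-fold (4.03 to 5.70) between set 1 and set 4, while Cox4i1 was level at 646, 696, 687 and 673 CPM. Oligodendrocyte-like cells had the same order at a lower level, 12.6, 10.1, 2.69 and 1.77 CPM, a 7.10-fold range (4.61 to 11.3). In pericyte-like cells the order was the reverse and the gap smaller, with 857, 732, 1000 and 1016 CPM in sets 1 to 4. In smooth muscle-like cells the sets did not split in either way.

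Values that move with this split are given here, and their part in it was not tested. The red cell list summed to 954, 3026, 305 and 221 CPM in endothelial-like cells and to 419, 384, 31.3 and 49.4 in oligodendrocyte-like cells. The pericyte markers do not follow it: each of the 11 stood at 1.80% or less of its pericyte-like level in endothelial-like cells, and Notch3, Anpep and Kcnj8 were at or near 0. Endothelial-like Cox4i2 stood at 19.1%, 21.1%, 3.71% and 3.36% of its pericyte-like level. In oligodendrocyte-like cells Cox4i2 was at 7.69%, 6.53%, 7.24% and 5.17% of its endothelial-like level, where the summed endothelial markers were at 0.344%, 0.213%, 0.259% and 0.320%. In microglia-like cells it was at 0.555%, 0.220%, 2.71% and 2.12%, under the endothelial markers at 1.96%, 1.68%, 3.46% and 3.52%. The part of endothelial RNA in this level was not tested. The ratio of Cox4i2 between microglia-like and oligodendrocyte-like cells (log2 −2.60), called lower, rests on 41 and 282 UMIs, and the call was lost with a stricter marker gate (−2.52) and with ratios centred on the median of all genes (−2.17), and could not be made with cells thinned to 1000 UMIs or a minimum of 50 UMIs. A Cox4i2 UMI was found in 80.9% of pericyte-like, 86.7% of smooth muscle-like, 20.4% of endothelial-like, 3.29% of oligodendrocyte-like and 0.346% of microglia-like cells. Thinned to 1000 UMIs, these shares were 57.1%, 36.0%, 7.21%, 0.792% and 0.0994%.

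**Figure D5:**
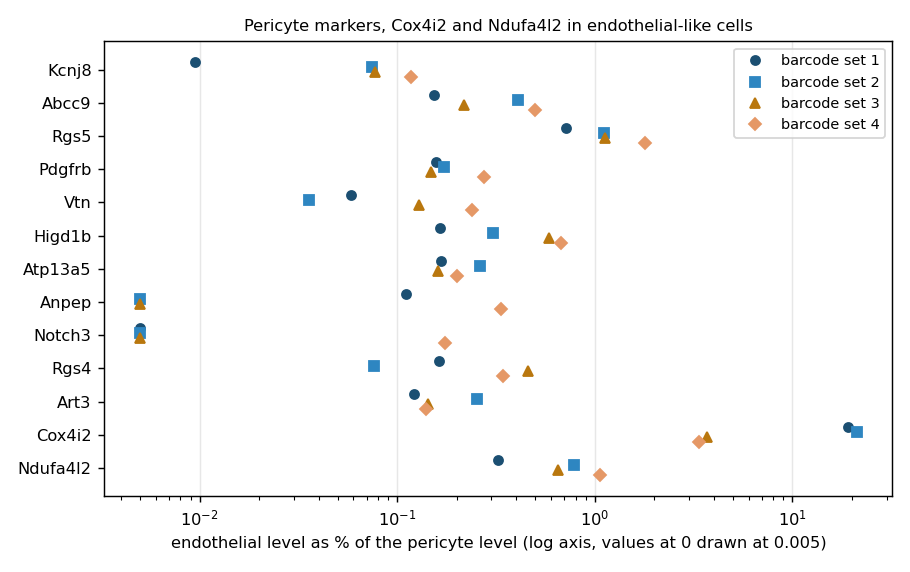
Level in endothelial-like cells as a percentage of the level in pericyte-like cells (log axis, zeros drawn at the left edge) for 11 pericyte markers, Cox4i2 and Ndufa4l2, with 1 point per barcode set. In all 4 sets Ndufa4l2 lies below Rgs5, which reaches 1.80%, and above the other 10 markers, and Cox4i2 lies above all 11, from 3.36% to 21.1%.

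By Pearson correlation of log2(CPM + 5) over the 39 combinations of type and set, the genes most like Cox4i2 were Lurap1l (0.978), Gja4 (0.978), Gng11 (0.977), Rhobtb3 (0.977) and Spry4 (0.975), among 12627 genes. Among those most like Ndufa4l2 were Vasn (0.993), Cys1 (0.992), Itga7 (0.986) and the pericyte marker Pdgfrb (0.986). The 39 points share libraries and types, so these are descriptions.

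COX6A2 is the heart and skeletal muscle form of a complex IV subunit and COX6B2 the testis form of another. Both were rare but were called higher in microglia-like than in oligodendrocyte-like cells. With cells thinned to 1000 UMIs both fell under the minimum to be measured, as did Cox6a2 where that minimum was raised to 50 UMIs, so these calls ended there. Cox6a2 had 3.79, 3.51, 3.57 and 3.74 CPM in microglia-like cells, from 214 UMIs, and 3 UMIs in all oligodendrocyte-like cells. Cox6b2 had 6.83, 5.33, 7.77 and 7.14 CPM, from 390 UMIs, against 9 UMIs in oligodendrocyte-like and 7 in endothelial-like cells. A UMI was seen in 1.53% of microglia-like cells for Cox6a2 and in 3.11% for Cox6b2, against 0.0381% and 0.114% of oligodendrocyte-like cells at a similar depth (4911 and 5592 UMIs per cell). The common forms remained far higher, with Cox6a1 at 253, 238, 189 and 185 CPM in microglia-like cells. Smooth muscle-like cells held 27 UMIs of Cox6a2, 15 of them in set 1, and pericyte-like cells 27 UMIs of Cox6b2, with 0 in set 1.

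ATP5IF1 binds the ATP synthase and stops it from running backwards as an ATPase. Red cell-like cells held 1453 and 1103 CPM of Atp5if1 in sets 1 and 2, a log2 ratio of 2.43 against all other typed cells, while Atp5f1e of the enzyme itself had 39.8 and 54.2 CPM there. It was the only member called higher in red cell-like cells, against 73 called lower, where 1.07% of all genes were higher and 52.9% lower. These counts depend on scaling: with TMM factors (edgeR's trimmed mean scaling, 0.164 to 0.191 here) 13 members were higher, Atp5if1 among them, and 8 lower. How many of all genes were called with these factors was not counted. Among the genes most like Atp5if1 over the 39 points were Slc25a39 (0.823), Ranbp10 (0.779), Cat (0.761) and Glrx5 (0.753). Endothelial-like cells had 374, 346, 345 and 333 CPM of Atp5if1 against 204, 189, 173 and 159 in microglia-like cells.

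Each smaller type was also compared with all other typed cells of its set. The share of all genes called with TMM factors was not counted, so the TMM counts below have no background. They show only which member calls depend on scaling. In smooth muscle-like cells 30 of 80 members were higher and 0 lower, where 10% of all genes were higher and 9.89% lower; with TMM factors 14 were higher, all of them among the 30, and 1 lower. After Ndufa4l2 and Cox4i2 came Cox8a, with 1501, 1577, 2017 and 2131 CPM (log2 1.87), Sdhc with 254, 294, 294 and 325 (1.87), Atp5f1b with 920, 922, 901 and 1011 (1.57) and Atp5mc3 (1.55). Each of these 4 was also called with TMM factors. In pericyte-like cells 15 members were higher and 1, Ndufa4 (log2 −2.45), lower, where 8.45% of all genes were higher and 5.45% lower. With TMM factors 2 were higher, Ndufa4l2 and Cox4i2, and 6 lower, Ndufa4 among them. The other members called higher in pericyte-like cells lost that call, so these calls depend on scaling.

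In ependymal-like cells, which line the ventricles, 24 members were higher and 2 lower, where 21.2% of all genes were higher and 12.4% lower, and with TMM factors 7 were higher and 11 lower. Ndufs1, the largest subunit of complex I, led with 42.4 and 37.0 CPM (log2 1.78), followed by Atp5mc3 (1.59) and Ndufc1, and all 3 were also called with TMM factors. In T cell-like cells 1 member was higher, Cox7b with 521, 431, 326 and 345 CPM (log2 0.95), and 3 lower, where 7.79% of all genes were higher and 14.1% lower; with TMM factors 0 were higher and 13 lower. In monocyte-like cells 3 were higher, led by Cox5a with 444, 459 and 373 CPM (1.07) and Cox7a2l (0.99), and 2 lower, where 3.41% and 4.31% of all genes were, and with TMM factors 1, Cox5a, was higher and 7 lower.

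Border macrophage-like cells had 14 members lower and 0 higher, where 4.66% of all genes were lower and 1.49% higher. B cell-like cells had 49 lower and 0 higher (22% and 1.81% of all genes), which became 18 lower and 1 higher with TMM factors. Neutrophil-like cells had 32 lower and 0 higher (5.44% and 3.71%), which became 50 lower and 0 higher. These shares of all genes include genes with too few UMIs in the type to be called, which the next counts leave out.

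Rare types hold few UMIs of most genes, so the counts were also taken over genes with at least 20 expected UMIs in the type in every set, a rule added after the data were seen. In pericyte-like cells 45 members qualified, of which 7 were higher and 1 lower, beside 5.28% and 36.6% of the qualifying genes. In smooth muscle-like cells 26 of 66 were higher and 0 lower (8.8% and 30.8%). In ependymal-like cells 22 of 69 were higher and 1 lower (18% and 32.9%). In T cell-like cells 1 of 69 was higher and 2 lower (13.1% and 30.9%), and in monocyte-like cells 3 of 45 were higher and 2 lower (13.5% and 23.7%). In border macrophage-like cells 0 of 37 were higher and 6 lower (6.53% and 30.3%), and in B cell-like cells 0 of 67 were higher and 45 lower (2.79% and 63.3%). In neutrophil-like cells 0 of 5 were higher and 3 lower (6.56% and 73%), and in red cell-like cells 1 of 69 was higher and 67 lower (1.82% and 95.4%). As shares, 39.4% of members against 8.8% of genes were higher in smooth muscle-like cells. Lower were 67.2% against 63.3% in B cell-like cells and 97.1% against 95.4% in red cell-like cells, both near the background. In neutrophil-like cells 60% of only 5 members against 73% of genes were lower. Relative to the median of the qualifying genes, the median member log2 ratio was 0.28 in B cell-like and 0.79 in red cell-like cells. It was 1.07 in neutrophil-like and −0.18 in border macrophage-like cells.

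The Mt genes showed a different balance. They took 5.25% (3.67 to 6.42) of UMIs in microglia-like cells, 10.0% (7.40 to 10.3) in oligodendrocyte-like cells, 8.88% (8.03 to 10.1) in endothelial-like cells and 7.37 to 14.1% in border macrophage-like cells. Against oligodendrocyte-like cells, 8 of 13 Mt genes were called lower in microglia-like cells, with a median log2 ratio of −0.38 relative to all genes, and 0 were called in endothelial-like cells. Border macrophage-like cells had 11.4 (5.98 to 16.5) Mt UMIs per member UMI, microglia-like cells 5.67 (4.23 to 6.32), endothelial-like cells 5.34, oligodendrocyte-like cells 4.24 and smooth muscle-like cells 2.82. Cells with over 20% Mt UMIs (1881) had been left out, which bounds these levels.

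Within a type, fewer members than genes in general differed between the barcode sets. A gene was counted as apart where its highest and lowest sets differed by at least 1.5-fold with the interval off 1. The sets were picked by the same levels, so this interval is too narrow, for members and all genes alike. Both sets together had to hold at least 50 UMIs. The genes in general were not matched to the members for UMIs, and sparse genes spread more by counting error. The part of this in the shares and spans below was not tested. This held for 6 of 77 members in microglia-like cells, where 36.2% of genes were apart, for 4 of 77 in oligodendrocyte-like cells (24.7%) and for 10 of 77 in endothelial-like cells (36.4%). The share was 8 of 69 in T cell-like cells (33.3%), 8 of 69 in pericyte-like cells (36.1%) and 11 of 73 in smooth muscle-like cells (30.3%). More were apart in border macrophage-like cells, 22 of 41 members beside 67.7% of genes, with member sums of 8550, 7981, 12900 and 12327 CPM; they had 36, 24, 26 and 129 cells. The median member spanned 1.20-fold between its highest and lowest set in microglia-like cells, against 1.39-fold for all genes, 1.16-fold against 1.30-fold in oligodendrocyte-like cells and 1.26-fold against 1.43-fold in endothelial-like cells.

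In microglia-like cells 44 of 77 members were highest in set 1 and 39 were lowest in set 4. In oligodendrocyte-like cells 37 were highest in set 3 and 34 lowest in set 1, and in endothelial-like cells 41 were highest in set 3 and 37 lowest in set 2. How many of all genes were highest or lowest in the same sets was not counted. These counts therefore have no background, and nothing particular to the members is read from them. The Mt genes moved more than the members: their sum spanned 1.75-fold over the sets in microglia-like cells, from 6.42%, 5.83% and 4.68% down to 3.67% in set 4, against 1.17-fold for the members. In oligodendrocyte-like cells the spans were 1.39-fold and 1.10-fold, and in endothelial-like cells 1.26-fold and 1.17-fold. Atp5f1e was the most abundant member apart in microglia-like cells, with 544, 449, 419 and 353 CPM, and Ndufa4 in endothelial-like cells, with 424, 424, 641 and 681. Other cells' RNA moved with the sets too: in microglia-like cells the red cell list summed to 467, 386, 29.2 and 41.7 CPM, the endothelial list to 405, 352, 864 and 860, and the microglia list itself to 24284, 25228, 17888 and 17158, and their part was not tested.

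Genes around the chain were read from fixed lists. Of 74 mitochondrial ribosome genes measured, 59 were lower and 0 higher in microglia-like than in oligodendrocyte-like cells, and of 43 assembly factors 26 were lower and 1, Coa5, higher, where 37.6% of all genes were lower and 22.1% higher. Tricarboxylic acid cycle and pyruvate genes had 13 lower and 2 higher of 25. Glycolysis genes had 6 higher and 3 lower of 18 and a median relative log2 ratio of 0.67: Hk2, a hexokinase, had a median of 469 CPM in microglia-like cells against 52.7 in oligodendrocyte-like cells, and Pfkl, a phosphofructokinase, 52.5 against 9.20. In endothelial-like against oligodendrocyte-like cells, 24 of 74 ribosomal genes were lower and 1 higher, 13 of 43 assembly factors were lower and 1 higher, and 9 of 17 glycolysis genes were higher and 2 lower, where 21.8% of all genes were lower and 20.9% higher. Ldha, a lactate dehydrogenase subunit, stood at 360.1 against 49.0 CPM there and Hk2 at 7.53 in endothelial-like cells. Of 11 hypoxia response genes 5 were higher and 3 lower, and Epas1, which encodes HIF-2α, had 1576 CPM against 19.3. Against microglia-like cells, 18 of 74 ribosomal genes, 6 of 42 assembly factors and 11 of 17 glycolysis genes were higher in endothelial-like cells, and 0, 0 and 1 were lower, where 27.9% of all genes were higher and 13.5% lower. The shares of ribosomal genes and assembly factors lower in endothelial-like against oligodendrocyte-like cells, of ribosomal genes higher in endothelial-like against microglia-like cells and of glycolysis genes higher in microglia-like cells are not far from these backgrounds, and nothing about the lists is read from them.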

How the data were processed

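The authors deposited 1 matrix of whole-number UMI counts per gene and barcode, written by Cell Ranger 5.0.0 per the file headers. The submitters' processing notes name Cell Ranger, STAR and Rnor_6.0. Annotation, alignment and cell-calling settings: not given in the sources used here. Barcodes below 500 UMIs or 300 genes or above 20% Mt UMIs were dropped (6343, 7982, 5186 and 8426 cells stayed in sets 1 to 4), and doublets were removed with the Scrublet method in scanpy 1.11.5. A cell took a type where at least 3 markers and 25% of the best of 22 lists were detected and the next unrelated list scored at most 50% of it; 2054 cells lay within 0.1 of that limit. Counts were summed per type and set and divided by the total. Poisson, binomial and Clopper-Pearson intervals came from scipy 1.17.1, TMM factors from edgeR 4.0.16 and clusters from leidenalg 0.10.2. The calling rule was tested on simulated data. These counts were drawn with counting error only, as the intervals assume, so the test does not cover spread between cells or libraries. The members and lists were chosen with earlier results of these data known. For each pair, up to 6 members called in each direction with the largest ratios were named, and for each smaller type up to 3. Alternatives were other scalings, limits, filters, gates and sets left out. Except for the rule of 20 expected UMIs, calls under them were counted for the members only and not over all genes. Values of a few genes are not reported here.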

Additional observations from a re-analysis of the deposited data

How the results depend on the processing

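Among 574 recomputed summary values, 477 stayed the same and 97 moved, and 0 medians reversed. A median counts as moved where it left the range of the 4 sets. Counts and Mt shares have no direction of their own, so they were not open to a reversal. With TMM factors the balance of members higher and lower did turn in some types. In pericyte-like cells it went from 15 and 1 to 2 and 6, and in ependymal-like cells from 24 and 2 to 7 and 11. In monocyte-like cells it went from 3 and 2 to 1 and 7, and in red cell-like cells from 1 and 73 to 13 and 8. Of 366 recomputed values of the 22 named ratios, 360 kept their call, 6 lost it and 0 reversed. Those lost were Cox4i2 in microglia against oligodendrocyte with a stricter gate (−2.52) and with ratios centred on the median of all genes (−2.17), and Cox7c, Ndufb4, Ndufc2 and Uqcrc2 in endothelial against oligodendrocyte at a 2-fold limit. A further 8 values could not be given: Cox6a2, Cox6b2 (in both of its comparisons) and Cox4i2 with cells thinned to 1000 UMIs, and Cox6a2 and Cox4i2 with a minimum of 50 UMIs, fell under the minimum to be measured, so that no call stood there, and Cox6a2 had no finite ratio with the stricter gate or filter, where oligodendrocyte-like cells of 2 of the 4 sets held 0 UMIs. No paired analysis was possible because the conditions have 1 library each and no label ties a library to a condition; ratios between cell types, each formed within 1 set, are paired by library as they stand. The cause of each move was not tested, except that fewer sets, fewer genes or a higher limit change counts by construction.

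With TMM factors, the median log2 ratio for microglia against oligodendrocyte was −1.24 over all members, −1.50 for complex I, −0.80 for II, −1.12 for III and −1.10 for V. For endothelial against oligodendrocyte it was −0.64 over all, −0.76 for I, −0.59 for II, −0.43 for IV and −0.38 for V. For endothelial against microglia it was 0.60 over all, 0.69 for I, 0.14 for II, 0.43 for III, 0.48 for IV and 0.59 for V, with 24 members higher and 3 lower. Members higher and lower were 2 and 6 in pericyte-like, 14 and 1 in smooth muscle-like, 0 and 13 in T cell-like, 1 and 18 in B cell-like, 1 and 7 in monocyte-like, 7 and 11 in ependymal-like and 13 and 8 in red cell-like cells, and 50 were lower in neutrophil-like cells. Of the microglia members 10 were apart over the sets.

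With ratios centred on the median of all genes, an alternative chosen after seeing the data, microglia against oligodendrocyte gave −1.05 over all, −1.31 for I, −0.61 for II, −0.93 for III, −0.75 for IV and −0.91 for V. Endothelial against oligodendrocyte gave −0.42 over all and −0.57 for I. Endothelial against microglia gave 0.60 over all, 0.70 for I, 0.14 for II, 0.43 for III, 0.49 for IV and 0.58 for V, with 25 higher and 2 lower. With genes of at least 20 expected UMIs, also chosen after seeing the data, 7 members were higher in pericyte-like cells, and 6 were lower in border macrophage-like, 3 in neutrophil-like and 1 in ependymal-like cells.

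With cells thinned to 1000 UMIs, 0 members were higher in microglia against oligodendrocyte and 0 lower in endothelial against microglia; endothelial against oligodendrocyte gave −0.57 over all, −0.78 for I, −0.51 for II and −0.42 for IV, and complex III in endothelial against microglia gave 0.65. With mean single-cell CPM, these were −0.58, −0.55 for II and −0.39 for IV, and 0.67 for III, with −1.34 for V in microglia against oligodendrocyte. At a 2-fold limit 2 members were lower in endothelial against oligodendrocyte and 20 higher in endothelial against microglia. With a minimum of 50 UMIs, 1 member was higher in microglia against oligodendrocyte, and with a minimum of 1 UMI, 2 were higher in endothelial against oligodendrocyte, with −0.13 for IV. With 1000 UMIs, 500 genes and 10% Mt as limits, endothelial against oligodendrocyte gave −0.41 over all and −0.22 for IV, and complex III in endothelial against microglia 0.95. Clusters in place of the gate gave −1.48 for III and −1.35 for V in microglia against oligodendrocyte, and 2 higher and −0.19 for IV in endothelial against oligodendrocyte. With only nuclear genes in the total, III and V gave −1.45 and −1.37 in microglia against oligodendrocyte. The Mt share was 10.7% in oligodendrocyte-like cells with no Mt limit and 7.27% in endothelial-like cells with a 10% limit.

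Leaving out each set in turn gave medians over all members of −1.52 to −1.41 for microglia against oligodendrocyte, −0.52 to −0.43 for endothelial against oligodendrocyte and 0.82 to 1.07 for endothelial against microglia. Complex I ranged from −1.84 to −1.63, from −0.75 to −0.60 and from 0.87 to 1.18 in the same order, and complex IV from −0.35 to −0.19 and from 0.72 to 1.11 in the endothelial pairs. Members lower in microglia against oligodendrocyte numbered 67 to 69, and members higher in endothelial against microglia 48 to 52. In T cell-like cells 3 to 9 were lower, in monocyte-like cells 3 to 6 higher and 2 to 4 lower, in border macrophage-like cells 15 to 22 lower, in neutrophil-like cells 35 to 59 lower and in ependymal-like cells 2 to 5 lower. Depth limits Cox6a2, Cox6b2 and all values of types with fewer than 100 cells, and with no sets tied to conditions no value here speaks to occlusion or stress.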
